A study of Mus musculus with 22 samples.

Results

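Pdxdc1, Pla2g12a, Itgb1bp1, Gna13, Rpp14, Vcp, Rhou, Cop1, Thumpd1 and Zfp30 are 10 of the 8251 genes that the array names by 1 symbol. They were chosen from measured values, because a probe set of each differed between SJL and Balb mice in leg and in eye muscle alike. Those strain differences are therefore given as a description, with no test for these genes. The 10 genes have 23 probe sets, all of which are described here. Thumpd1 has 1 probe set, 6 genes have 2, Pdxdc1 and Itgb1bp1 have 3, and Vcp has 4.

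RNA was measured in muscle of 2 inbred mouse strains, SJL and Balb, at 10 and at 12 months of age. In SJL mice there were 3 arrays of leg muscle at each age, 3 of EOM (extraocular muscle, which turns the eyeball) at 10 months and 2 at 12 months. In Balb mice there were likewise 3 arrays of leg muscle at each age, 3 of EOM at 10 months and 2 at 12 months, which gives 22 arrays in 8 groups. SJL is a strain with an inherited defect of dysferlin, a membrane repair protein, and develops muscular dystrophy. The strains also differ at many other places in the genome, so a strain difference cannot be tied to dysferlin by this design. The labels give no treatment, sex, substrain or number of animals, and do not say that replicates were separate mice. The p-values below therefore measure only the spread between these arrays, and the number of arrays limits the precision.

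A probe set on this kind of Affymetrix array is a group of short oligonucleotides meant to read 1 transcript, and its intensity depends on how much of that transcript is present and on how well its sequence pairs with the oligonucleotides. A base that differs between strains within the probed stretch, or a strain-specific exon or poly(A) site, can therefore change 1 probe set of a gene and leave another as it was, whereas a change in the total amount of a transcript is expected to reach every probe set that reads it. The suffix of a name records how specific the set is. The plain suffix marks a set designed for 1 transcript, while _g_at, _s_at and _f_at sets share sequence with other transcripts or gene family members, and _i_at and _r_at sets were built from fewer or less strictly chosen oligonucleotides. The oligonucleotide sequences and the sequences of these mice were not used here, so sequence, transcript form and amount cannot be told apart directly, and neither can fewer cells of a type and less RNA per cell in whole muscle.

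The proteins have varied roles. Pla2g12a is a secreted phospholipase A2, and Pdxdc1 has the fold of a vitamin B6-dependent decarboxylase. Itgb1bp1 binds the inner tail of beta 1 integrin, Gna13 is the alpha subunit of a G protein that activates RhoA through exchange factors, and Rhou is an atypical small GTPase. Vcp is the ATPase that pulls ubiquitinated proteins out of complexes and membranes and is mutated in a human inclusion body myopathy. Cop1 is a ubiquitin ligase, Rpp14 is a subunit of RNase P, the enzyme that trims tRNA precursors, Thumpd1 assists the acetylation of tRNA, and Zfp30 is a KRAB zinc finger repressor protein.

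All 22 arrays had been scaled to a trimmed mean of 1500.77 to 1501.08 by the authors. Array medians ran from 423.1 to 561 at 12 months and from 565.8 to 650.6 at 10 months, so age and this difference between the arrays cannot be told apart. The 4 replicate 1 arrays of 10 months, 1 in each strain and muscle, stood apart by their Actb 3 prime to 5 prime ratio. This signal ratio, a measure of RNA integrity, was 5.05 to 53.7 on them and 0.847 to 1.93 on the other arrays. The same ratio of Gapdh was 2.17 in Balb leg, 18.3 in Balb EOM, 19.9 in SJL leg and 14.1 in SJL EOM on them. On SJL EOM replicates 2 and 3 of 10 months it was 6.71 and 4.66. Leaving out the 4 arrays therefore does not leave out every array with a raised ratio. Low Gapdh ratios occurred as well, at 0.0797, 0.0789 and 0.0534 on the 3 SJL leg arrays of 12 months. In Balb leg at 12 months the ratio was 0.0976 on replicate 1, and 1.44 and 0.706 on replicates 2 and 3. The part of the low ratios in the results was not tested. For the muscle and age comparisons, the member calls that changed without the 4 replicate 1 arrays of 10 months are given beside the results. The intensities of the 12 skeletal muscle markers summed to 106900 to 710300 over the groups. A list of 10 orbital gland and epithelium genes summed to 11220 to 18980 in SJL EOM and 29040 to 45540 in Balb EOM, against 3497 to 12530 in SJL leg and 2780 to 9970 in Balb leg. The 11 macrophage markers summed to 22620 to 49940 in SJL leg and 9784 to 22840 in Balb leg. The part of these cell types in the strain differences below was not tested.

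Differences are log2 differences between group means of log2(intensity + 16), with standard errors from limma. Of the 23 probe sets, 21 were bright enough to be tested and 2 were not, Vcp 161550_r_at and Zfp30 104438_at. Among all 8695 probe sets tested, 1.41% passed an adjusted p of 0.05 between SJL and Balb in leg and 0.932% in EOM. In both muscles 41 probe sets passed, 18 higher and 23 lower in SJL. Member probe sets made up 12 of the 41, 5 of the 18 higher and 7 of the 23 lower, which restates how the genes were chosen. The smallest of these 12 differences was that of Itgb1bp1 100989_at, and the others among the 41 that belong to no member went down to 0.78 (Gnpat, mean of both muscles). The arrays of SJL and Balb did not overlap, the same way in leg and EOM and at each age, for 12 member probe sets and for 0.679% of all probe sets tested.

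**Figure D1:**
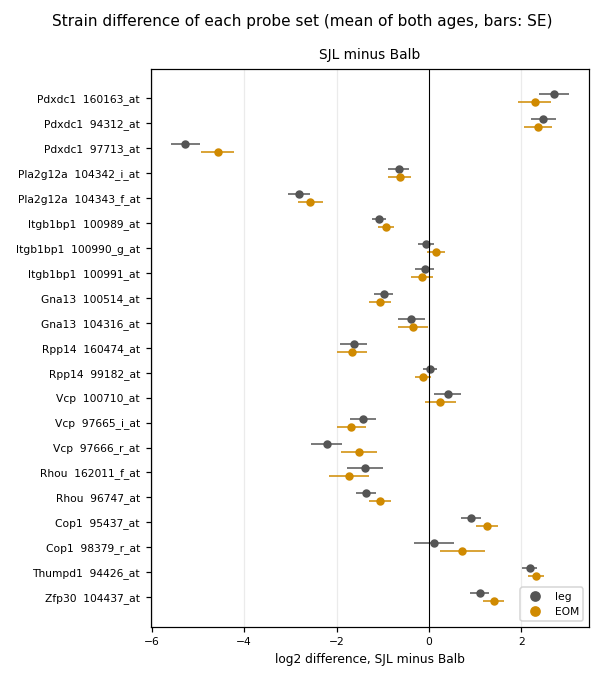
Log2 difference, SJL minus Balb, of each of the 21 tested probe sets (rows, by gene) in leg (grey) and EOM (orange). Points are means over both ages and bars are standard errors. The Pdxdc1 sets lie on both sides of 0, from -5.27 to 2.70 in leg, while the sets of Rhou lie on the same side and those of Rpp14 differ, with 160474_at at -1.63 and 99182_at at 0.02 in leg.

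Pdxdc1 had the largest contradiction between probe sets of 1 gene. Sets 160163_at and 94312_at read higher in SJL, and set 97713_at read far lower in SJL. Set 97713_at had leg values of 414, 112 and 359 in SJL and 6866, 4096 and 3989 in Balb at 10 months, and of 67.1, 33.6 and 63 in SJL and 5891, 6111 and 5398 in Balb at 12 months. Its EOM values were 586, 642 and 171 in SJL and 5489, 5063 and 3894 in Balb at 10 months, and 89.5 and 92.4 in SJL and 4493 and 6294 in Balb at 12 months. Every SJL array lay below every Balb array by a wide margin, with 54.57 ± 18.3 in SJL leg and 5800 ± 365 in Balb leg at 12 months (SD, n = 3 each). The strain difference was -5.27 (SE 0.32) in leg and -4.57 (SE 0.36) in EOM, which is 38.6-fold and 23.8-fold lower in SJL. On 7 of the 11 SJL arrays the value lay under 194.4, the intensity that corresponds to the filter on low values, so the fold depends on values near the bottom of the scale.

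The other Pdxdc1 sets turned the strains round. In leg, 160163_at read 1323, 1684 and 1833 at 10 months and 2079.7, 2259 and 2337 at 12 months in SJL, against 188, 119 and 362 at 10 months and 627, 194 and 424 at 12 months in Balb. In EOM it read 1389, 1793 and 1991 at 10 months and 1821 and 1722 at 12 months in SJL, against 224, 119.8 and 487 at 10 months and 581 and 411 at 12 months in Balb. The SJL arrays were all above the Balb arrays, and 4 Balb arrays were under 194.4. The difference was 2.70 (SE 0.32) in leg and 2.29 (SE 0.36) in EOM, or 6.52-fold and 4.89-fold higher in SJL.

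Set 94312_at behaved alike, with 1193 to 2087 in SJL leg and 128 to 505 in Balb leg, and 1241 to 2188 in SJL EOM and 203 to 699 in Balb EOM. Its difference was 2.47 (SE 0.27) in leg and 2.36 (SE 0.30) in EOM. The strains did not overlap in this set in either muscle at either age. Among all 1561 pairs of probe sets of the same gene, from 1150 genes, only 2 pairs passed in opposite directions between the strains in both muscles, and both were pairs of 97713_at with another Pdxdc1 set. The genes were chosen by their strain difference, so this count and the ranks of pairs given below are descriptions.

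**Figure D2:**
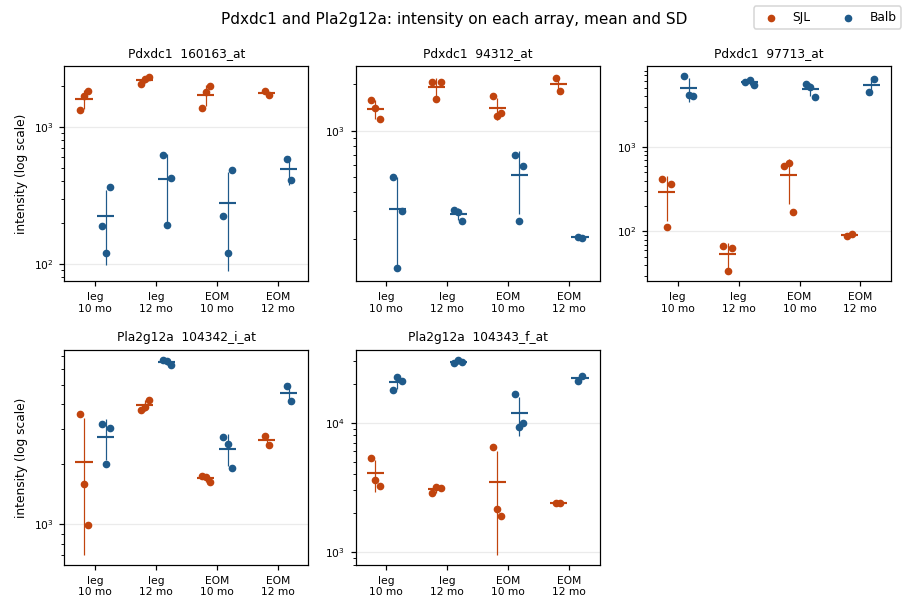
Intensity on each array (points, log axis) of the 3 Pdxdc1 sets and the 2 Pla2g12a sets by muscle and age in months, SJL (red, left) and Balb (blue, right). Horizontal lines are means and vertical lines SD (n = 3, or 2 in EOM at 12 months). Pdxdc1 97713_at lies at 33.6 to 642 in SJL and 3894 to 6866 in Balb, and the order of the strains is reversed in the other Pdxdc1 sets.

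Pla2g12a, the phospholipase, was read by 2 probe sets made from the same source sequence, and they gave the strain difference in very different sizes. For 104343_f_at in leg, the 10-month arrays gave 5338, 3619 and 3220.4 in SJL and 18074, 22468 and 21113 in Balb, and the 12-month arrays 2862, 3201 and 3123 in SJL and 28803, 30615 and 29502 in Balb. EOM gave 6454, 2164 and 1891 in SJL and 16566, 9233 and 9965 in Balb at 10 months, and 2392 and 2384 in SJL and 20989.6 and 23039.6 in Balb at 12 months. All SJL arrays were below all Balb arrays within each muscle and age. The difference was -2.82 (SE 0.24) in leg and -2.57 (SE 0.27) in EOM, or 7.05-fold and 5.93-fold lower in SJL. In SJL EOM at 10 months the replicate 1 array read 6454, above the other 2.

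At 10 months 104342_i_at stood at 3579, 1589 and 995 in SJL leg and 3179, 2017 and 3043 in Balb leg, and at 12 months it stood at 3754, 3877 and 4209.6 in SJL leg and 6635, 6563 and 6288 in Balb leg. In SJL EOM the values were 1757, 1722 and 1623 at 10 months and 2774 and 2499.5 at 12 months, and in Balb EOM 2748, 2526 and 1918 at 10 months and 4935 and 4179.8 at 12 months. Here SJL lay below Balb without overlap in 3 of the 4 combinations of muscle and age, and overlapped it in leg at 10 months through the replicate 1 SJL array. The difference was -0.65 (SE 0.22) in leg and -0.63 (SE 0.25) in EOM. The log2 ratio of 104342_i_at to 104343_f_at was higher in SJL by 2.05 (SE 0.22) on the mean of both muscles, rank 4 of the 1561 pairs. Being an _f_at set, 104343_f_at may also read relatives of Pla2g12a, which was not tested. Oligonucleotide sequences were not used, so the strain values of other phospholipases A2 cannot decide it. Of 7 other phospholipases A2 tested, Pla2g7 alone passed between the strains, and in leg only, and it was higher in SJL by 1.17 (SE 0.21, adjusted p 0.00478 by limma with Benjamini-Hochberg adjustment, n = 6 each). The 11 macrophage markers were at a median of 1.14 in the same comparison, with 5 higher in SJL, and their part in the Pla2g7 value was not tested.

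Itgb1bp1, the integrin tail binding protein, differed between strains in 1 of its 3 sets. In leg, 100989_at read 3282, 2186 and 2177 at 10 months and 2466, 1929.9 and 2039.8 at 12 months in SJL, against 5517, 4785 and 4656 at 10 months and 4762, 4712 and 5037 at 12 months in Balb. In EOM it read 1548, 2558 and 2384 at 10 months and 1481 and 1525 at 12 months in SJL, against 3659, 2941 and 3419.6 at 10 months and 3709 and 3289.7 at 12 months in Balb. SJL lay below Balb without overlap in each muscle and age, and the difference was -1.08 (SE 0.15) in leg and -0.93 (SE 0.17) in EOM, about 2.12-fold in leg. Set 100990_g_at was made from the same source sequence as 100989_at, and it read 1464 to 3565 in SJL leg and 1482 to 3580.4 in Balb leg. Its strain difference was -0.06 (SE 0.17) in leg and 0.15 (SE 0.19) in EOM. The third set, 100991_at, from another source sequence, read 372 to 1989 in SJL leg and 417 to 1412 in Balb leg, and its difference was -0.09 (SE 0.21) in leg and -0.15 (SE 0.23) in EOM. The strains overlapped in all 4 combinations in 100991_at and in 3 of 4 in 100990_g_at, where SJL lay above Balb in EOM at 12 months.

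Rpp14, the RNase P subunit, showed the same split between its 2 sets. The SJL leg intensities of 160474_at were 519.5, 317 and 406 at 10 months and 493, 480.0 and 404 at 12 months, and the Balb leg intensities 1301, 954 and 1267 at 10 months and 1879, 1265 and 1759 at 12 months. The EOM intensities were 339, 93 and 486 at 10 months and 416 and 359 at 12 months in SJL, and 1121, 691 and 1072 at 10 months and 1123 and 1138 at 12 months in Balb. SJL lay below Balb in every combination, and the difference was -1.63 (SE 0.29) in leg and -1.67 (SE 0.32) in EOM, 3.1-fold and 3.18-fold. The value of 93 in SJL EOM at 10 months was the only one of the 22 under 194.4. Set 99182_at read 1242 to 1864 in SJL leg and 1248 to 1779 in Balb leg, and 703 to 1239.6 in SJL EOM and 953 to 1202 in Balb EOM. The strains overlapped in all 4 combinations, with differences of 0.02 (SE 0.15) in leg and -0.13 (SE 0.17) in EOM. The ratio of the sets differed between strains by -1.60 (SE 0.21), rank 12 of 1561.

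Vcp, the ubiquitin-dependent ATPase, had 3 tested sets, of which 2 were lower in SJL. Set 97665_i_at had leg values of 274, 341 and 324 in SJL and 636, 576 and 434 in Balb at 10 months, and of 51, 50.9 and 55.3 in SJL and 302, 299 and 223 in Balb at 12 months. Its EOM values were 216, 289 and 193 in SJL and 298, 667 and 615 in Balb at 10 months, and 160.3 and 37 in SJL and 507 and 410.4 in Balb at 12 months. SJL was below Balb in all 4 combinations, and 6 SJL arrays were under 194.4. The difference was -1.42 (SE 0.28) in leg and -1.68 (SE 0.31) in EOM. Set 97666_r_at read 19 to 309.7 in SJL leg and 356 to 759 in Balb leg, and 123 to 399.8 in SJL EOM and 291 to 721 in Balb EOM, and its difference was -2.21 (SE 0.34) in leg and -1.52 (SE 0.38) in EOM. On 8 of the 11 SJL arrays it lay under 194.4, so the size of this difference rests on values near the bottom of the scale. The strains overlapped in this set in EOM at 10 months only.

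The third tested Vcp set, 100710_at, lay the other way or overlapped. For 100710_at in leg, the 10-month arrays gave 4532, 18454 and 17397 in SJL and 8386, 10249 and 10457 in Balb, and the 12-month arrays 17969, 16131 and 17183 in SJL and 10511, 12603 and 11197 in Balb. EOM gave 3332, 6635 and 8958 in SJL and 5366, 7553 and 8201 in Balb at 10 months, and 11475 and 15464 in SJL and 7121 and 8937 in Balb at 12 months. SJL lay above Balb without overlap at 12 months in both muscles, and the strains overlapped at 10 months, where the replicate 1 SJL arrays were the lowest of their groups at 4532 in leg and 3332 in EOM. Its difference over both ages was 0.41 (SE 0.30) in leg and 0.25 (SE 0.33) in EOM, and without the 4 replicate 1 arrays of 10 months it was 0.69 and 0.35. Within 12 months it was 0.58 in leg and 0.74 in EOM, and within 10 months 0.23 and -0.25. The fourth set, 161550_r_at, was under 194.4 on 21 of 22 arrays and overlapped throughout, at 3.2 to 312 in SJL and 10.2 to 113 in Balb. The pairs of 100710_at with 97666_r_at and with 97665_i_at ranked 3 and 7 among the 1561 by the strain difference of their ratio, 2.19 (SE 0.41) and 1.88 (SE 0.30).

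**Figure D3:**
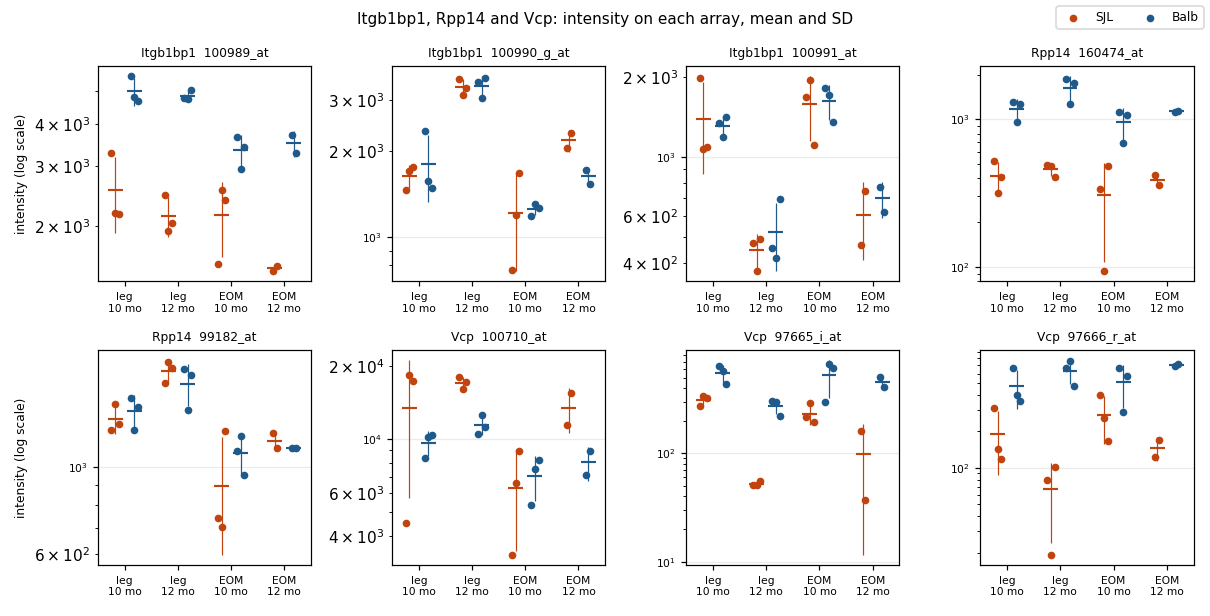
Intensity on each array (points, log axes) of the tested sets of Itgb1bp1, Rpp14 and Vcp by muscle and age in months, SJL (red, left) and Balb (blue, right), with means (horizontal lines) and SD (vertical lines, n = 3, or 2 in EOM at 12 months). Itgb1bp1 100989_at, Rpp14 160474_at and Vcp 97665_i_at separate the strains in each combination, and Itgb1bp1 100991_at and Rpp14 99182_at overlap in each.

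Rhou, the small GTPase, read lower in SJL in both of its sets, by similar amounts in leg. At 10 months 96747_at stood at 544, 528 and 509 in SJL leg and 2038, 2169.9 and 1367 in Balb leg, and at 12 months it stood at 1461, 1413 and 1502 in SJL leg and 3129.8, 2748 and 2802 in Balb leg. In SJL EOM the values were 259, 786 and 488 at 10 months and 973 and 722 at 12 months, and in Balb EOM 889, 850.3 and 1389.8 at 10 months and 1636 and 1813 at 12 months. SJL lay below Balb in each combination, and the difference was -1.37 (SE 0.22) in leg and -1.06 (SE 0.24) in EOM. Set 162011_f_at read 272 to 914 in SJL leg and 357 to 2187 in Balb leg, and 183 to 620.4 in SJL EOM and 479 to 2446 in Balb EOM. It overlapped only in leg at 10 months, and its difference was -1.38 (SE 0.39) in leg and -1.73 (SE 0.44) in EOM. Its Balb arrays of 10 months were scattered, at 2187, 1106 and 357 in leg and 2446, 479 and 1050 in EOM. It was not among the 41 sets that passed in both muscles. Being an _f_at set, it may also read other transcripts, which was not tested. The sets came from different source sequences, and their ratio differed between strains by -0.34 (SE 0.31), rank 525 of 1561 and about the size of its standard error.

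Gna13, the G protein subunit, had lower means over both ages in SJL in both of its sets, without overlap in 1 of them. In leg, 100514_at read 689, 1429.9 and 1466 at 10 months and 1521, 1282 and 1405 at 12 months in SJL, against 2441, 2082 and 2426 at 10 months and 2647, 2815 and 2639.8 at 12 months in Balb. In EOM it read 858, 1002 and 756 at 10 months and 806 and 1477 at 12 months in SJL, against 1284, 2233 and 2374 at 10 months and 2119 and 2279 at 12 months in Balb. The strains did not overlap in any combination, and the difference was -0.98 (SE 0.21) in leg and -1.06 (SE 0.23) in EOM, 1.97-fold and 2.08-fold. Set 104316_at read 294 to 927 in SJL leg and 353 to 1012 in Balb leg, and 334 to 756 in SJL EOM and 325 to 778 in Balb EOM. It overlapped in 3 of 4 combinations, with differences of -0.38 (SE 0.29) in leg and -0.34 (SE 0.33) in EOM. Within 12 months its difference was -0.64 in leg and -0.72 in EOM, and within 10 months -0.12 and 0.03. The ratio of the sets differed by -0.66 (SE 0.30).

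Cop1, the ubiquitin ligase, was higher in SJL in set 95437_at. The SJL leg intensities of 95437_at were 3839.5, 2525 and 2035 at 10 months and 2958, 2940.2 and 2772 at 12 months, and the Balb leg intensities 1690.1, 1267 and 1212 at 10 months and 1762, 1453 and 1581 at 12 months. The EOM intensities were 3440.0, 2607 and 1840.2 at 10 months and 2469.9 and 2619.8 at 12 months in SJL, and 1633, 1073 and 629 at 10 months and 958 and 1188 at 12 months in Balb. SJL lay above Balb in each combination, by 0.91 (SE 0.22) in leg and 1.26 (SE 0.24) in EOM. Set 98379_r_at overlapped in all 4 combinations, at 731 to 4966 in SJL leg and 964 to 2915 in Balb leg, and its differences were 0.11 (SE 0.43) in leg and 0.72 (SE 0.48) in EOM. At 10 months its replicate 1 arrays were the lowest of their group in all 4 groups, for example 731, 4966 and 3439 in SJL leg.

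Thumpd1, the tRNA acetylation adaptor, had 1 probe set, so no second reading of it could be compared. Set 94426_at had leg values of 2930.1, 3040.2 and 2706 in SJL and 989, 832 and 901 in Balb at 10 months, and of 3054, 3045 and 2944 in SJL and 579, 434 and 362 in Balb at 12 months. Its EOM values were 3919, 2625 and 2929.8 in SJL and 1087, 1185 and 789 in Balb at 10 months, and 3515 and 2729 in SJL and 327 and 406 in Balb at 12 months. SJL lay above Balb in each combination by 2.18 (SE 0.16) in leg and 2.32 (SE 0.17) in EOM, or 4.53-fold and 5.01-fold. The SJL arrays stayed within 2625 to 3919, and the Balb arrays lay at 327 to 579 at 12 months and 789 to 1185 at 10 months.

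Zfp30, the zinc finger protein, was higher in SJL in its tested set, 104437_at. For 104437_at in leg, the 10-month arrays gave 1257, 830.1 and 835 in SJL and 416, 554 and 391 in Balb, and the 12-month arrays 1185, 1172 and 1310.3 in SJL and 464, 483 and 737 in Balb. EOM gave 2187, 1393 and 1554 in SJL and 768, 752 and 375 in Balb at 10 months, and 1654 and 1767 in SJL and 692 and 629 in Balb at 12 months. The strains did not overlap in any combination, and the difference was 1.10 (SE 0.20) in leg and 1.41 (SE 0.23) in EOM. Its other set, 104438_at, was under 194.4 on 17 of 22 arrays and overlapped in all 4 combinations, at 32.5 to 399.6 in SJL and 41.2 to 309 in Balb.

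**Figure D4:**
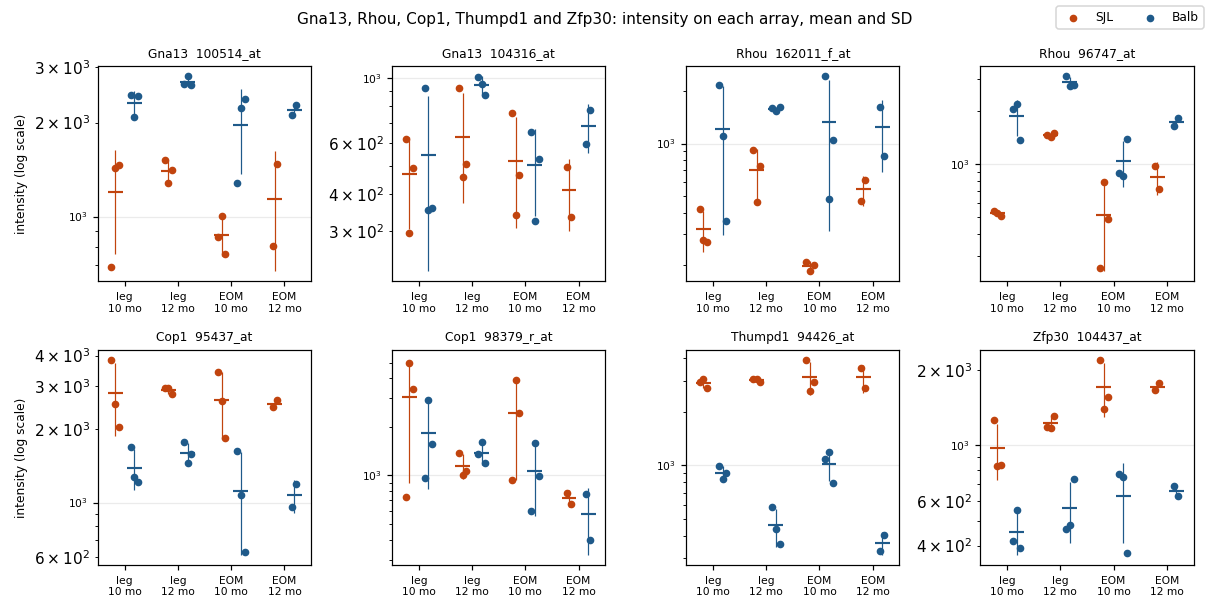
Intensity on each array (points, log axes) of the tested sets of Gna13, Rhou, Cop1, Thumpd1 and Zfp30 by muscle and age in months, SJL (red, left) and Balb (blue, right), with means (horizontal lines) and SD (vertical lines, n = 3, or 2 in EOM at 12 months). The SJL arrays of Thumpd1 lie at 2625 to 3919 and its Balb arrays at 327 to 1185.

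Compared pair by pair, the 8 member genes with more than 1 tested set gave 14 pairs. In 9 of these, 1 set of the 2 was among the 41 that passed in both muscles, in 2 the sets passed in opposite directions, and in 1 both passed the same way. Over all 1561 pairs the same counts were 15, 2 and 1, and 1.22% of pairs had a ratio that passed between the strains. Member pairs held 7 of the 35 pairs whose ratio differed by at least 1 on the log2 scale. The member counts, like the ranks of member pairs given above, follow from how the genes were chosen. Among pairs of other genes, the largest strain difference of a ratio was -1.91, for the sets of H2-K1, a class I histocompatibility gene that is known to vary between mouse strains.

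The muscle comparison was not used to choose the genes, so it could be tested. In SJL, 1 of the 21 member sets was lower in EOM than in leg and none was higher, beside 9.56% of all sets in either direction. This was Rpp14 99182_at, the set that did not separate the strains. It read 741, 703 and 1239.6 at 10 months and 1220.1 and 1118 at 12 months in EOM, against 1242, 1455 and 1288 at 10 months and 1639, 1864 and 1797 at 12 months in leg. The muscles did not overlap within an age, and the difference was -0.60 (SE 0.16, limma adjusted p 0.0217, n = 5 and 6). It was -0.61 within 10 months (adjusted p 0.488) and -0.59 within 12 months (adjusted p 0.0159), and it missed the threshold without SJL leg replicate 2, EOM replicate 1 or EOM replicate 3 of 12 months, or without EOM replicate 2 of 10 months, and when the fit held only the groups compared (adjusted p 0.115). In Balb the same set was at -0.45 (adjusted p 0.0739). Without the 4 replicate 1 arrays of 10 months 5 member sets were lower and 1 higher in SJL EOM, beside 30.8% of all sets. Rpp14 99182_at was joined by Pla2g12a 104343_f_at at -0.55, Itgb1bp1 100990_g_at at -0.45, Gna13 100514_at at -0.54, Vcp 100710_at at -0.79 and Zfp30 104437_at at 0.65.

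In Balb, 3 member sets were lower in EOM and none was higher, beside 13.6% of all sets in either direction. Itgb1bp1 supplied 2 of them. Set 100990_g_at read 1189, 1306 and 1263 at 10 months and 1725 and 1541 at 12 months in EOM, against 2339, 1574 and 1482 at 10 months and 3477, 3068 and 3580.4 at 12 months in leg, a difference of -0.76 (SE 0.18, limma adjusted p 0.0076). The muscles were apart at each age. Set 100989_at differed by -0.52 (SE 0.16, limma adjusted p 0.0353), and Rhou 96747_at by -0.79 (SE 0.23, limma adjusted p 0.0307). Within 12 months alone all 3 passed, at -1.04, -0.47 and -0.74, and within 10 months none did, at -0.49, -0.58 and -0.83 (adjusted p 0.667, 0.46 and 0.49). Leaving out any 1 of the 12-month Balb arrays ended the call of 100989_at and of Rhou, so that 1 of the 3 sets was left, and so did leaving out leg replicate 1 or 2 or EOM replicate 2 of 10 months. The call of 100989_at was also lost without EOM replicate 3 of 10 months and with quantile normalization (-0.49, adjusted p 0.0548), and that of Rhou without EOM replicate 1 of 10 months. Without the 4 replicate 1 arrays of 10 months 8 member sets were lower in Balb EOM, beside 33.4% of all sets. The 5 added ones were Pla2g12a 104343_f_at at -0.81, Rpp14 99182_at at -0.42, Vcp 100710_at at -0.45, Cop1 95437_at at -0.58 and Cop1 98379_r_at at -1.03. Markers of other cell types moved in the same comparison. The orbital gland and epithelium list was at a median of 0.47 in SJL and 2.40 in Balb, with 2 and 8 of 10 genes higher in EOM. The myelinating nerve list was at 1.91 in SJL and 1.10 in Balb, with 6 of 7 genes higher in each, and its intensities summed to 16940 to 23660 in EOM and 5100 to 8897 in leg. The macrophage list was at -0.615 in SJL, with 1 of 11 genes lower, and at 0.662 in Balb, with 5 higher. The part of these lists in the member values was not tested.

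The third Itgb1bp1 set, 100991_at, went the other way between muscles, with 0.31 in SJL and 0.37 in Balb, neither of which passed. The disagreement between sets was tested on the log2 ratio of 2 sets of 1 gene, over all 1561 pairs and both strains together, an analysis added after the data had been seen. The ratio of 100990_g_at to 100991_at differed between EOM and leg by -0.99 (SE 0.22, limma adjusted p 0.0112), and that of 100989_at to 100991_at by -0.78 (SE 0.18, limma adjusted p 0.0137). No other member pair passed, and 7.24% of all pairs did. The sets of this gene therefore gave unequal muscle differences. Within 10 months no member pair passed.

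Between ages, 3 member sets were higher and 4 lower at 12 months in leg, beside 38.5% of all sets, and 3 were higher and 2 lower in EOM, beside 27.6%. These shares near the background say nothing particular of the genes. Pla2g12a 104342_i_at was higher at 12 months, by 1.20 in leg (SE 0.22, limma adjusted p 0.000384) and 0.78 in EOM (adjusted p 0.0278), while 104343_f_at was at 0.08 and 0.31 and did not pass. Without the 4 replicate 1 arrays of 10 months, however, 104343_f_at passed in EOM at 0.72 (adjusted p 8e-06). Rhou 96747_at rose by 1.05 in leg (adjusted p 0.000927) and 0.79 in EOM (adjusted p 0.0225), and its other set, 162011_f_at, was at 0.89 and 0.76 without passing. Without the same 4 arrays 162011_f_at passed in both, at 1.29 (adjusted p 0.00196) and 1.07 (adjusted p 0.0179), and in leg it also passed with quantile normalization (adjusted p 0.0354) and median centring (adjusted p 0.0109). Thumpd1 fell by 0.46 in leg (limma adjusted p 0.0265) and by 0.72 in EOM (limma adjusted p 0.00575) on the mean of both strains. Its mean in Balb went from 907 at 10 months to 458 at 12 months in leg and from 1020 to 367 in EOM. In SJL it went from 2892 to 3015 in leg and from 3158 to 3122 in EOM. In leg, Vcp 97665_i_at was at -1.61 (adjusted p 0.000219) and Pdxdc1 97713_at at -0.87 (adjusted p 0.0417). In EOM these 2 did not pass, at -0.73 and -0.91, although Vcp 97665_i_at did without the 4 arrays, at -0.93 (limma adjusted p 0.0449). The leg mean of Pdxdc1 97713_at was 295 at 10 months and 54.6 at 12 months in SJL, but 4984 and 5800 in Balb. Its SJL leg values of 12 months all lay under 194.4, so its age difference rests on values near the bottom of the scale. The leg mean of Vcp 97665_i_at went from 312.9 at 10 months to 52.4 at 12 months in SJL, and from 548.6 to 274.6 in Balb. Its SJL leg values of 12 months lay under 194.4 too, so the size of its fall rests partly on such values. Marker lists were counted with age too, beside 38.5% of all sets in leg and 27.6% in EOM. In leg 7 of 12 skeletal muscle genes were lower (median -1.36), 7 of 10 of orbital gland and epithelium (-1.44), 4 of 7 of myelinating nerve (-0.564) and 4 of 11 of macrophages (-0.0781). In EOM these counts were 0, 3, 2 and 2, with 1 macrophage gene higher. The macrophage list in leg and all the lists in EOM were thus near or below the share of all sets. The median over all sets was -0.092 in leg. The part of these lists in the member values was not tested.

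Of the Itgb1bp1 sets, 2 moved in opposite directions with age. At 12 against 10 months 100990_g_at rose by 0.98 in leg (SE 0.17, limma adjusted p 0.000188) and by 0.64 in EOM (SE 0.19, limma adjusted p 0.0179). Set 100991_at was lower, at -1.44 in leg (SE 0.21, limma adjusted p 3.73e-05) and -1.28 in EOM (SE 0.23, limma adjusted p 0.000661). In leg 100991_at read 477, 372 and 494 in SJL and 456, 417 and 696 in Balb at 12 months, against 1989, 1076 and 1090.0 in SJL and 1338, 1193 and 1412 in Balb at 10 months, so the ages did not overlap in either strain. Set 100989_at, which carried the strain difference, was at -0.13 and -0.21 and did not pass, but in EOM it passed without the 4 replicate 1 arrays of 10 months (-0.29, adjusted p 0.027). The ratio of 100990_g_at to 100991_at differed between ages by 2.17 (SE 0.22, limma adjusted p 1.37e-06), and 8 of the 14 member pairs passed this test beside 48.8% of all pairs.

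The scaling moved the age comparison more than any other. Over all sets the median age difference was -0.09 in leg and -0.11 in EOM with the values as deposited, 0.09 and 0.02 after quantile normalization, and 0.33 and 0.17 after each array was centred on its median. The share of passing sets that were higher was 29.9%, 42.9% and 63.4% in leg and 28.7%, 39.9% and 58.8% in EOM in the same order. Without the 4 replicate 1 arrays of 10 months the member counts were 6 higher and 4 lower in leg and 6 higher and 5 lower in EOM, beside 61.5% and 42.4% of all sets. Beyond the sets already named, these included Gna13 104316_at at 1.00, Cop1 95437_at at 0.35 and Cop1 98379_r_at at -1.24 in leg, and Vcp 100710_at at 0.40 and Cop1 98379_r_at at -1.62 in EOM. With median centring the member counts were 13 higher and 2 lower in leg and 5 higher and 1 lower in EOM. Of all 8695 sets, 2637 were then higher and 1520 lower in leg, and 1581 higher and 1108 lower in EOM. The rises of Pla2g12a 104342_i_at, Itgb1bp1 100990_g_at and Rhou 96747_at and the fall of Itgb1bp1 100991_at passed in both muscles under either scaling. The fall of Thumpd1 did not, at -0.04 in leg (adjusted p 0.869) and -0.43 in EOM (adjusted p 0.0816) after median centring, and at -0.30 in leg after quantile normalization (adjusted p 0.168). The fall of Pdxdc1 97713_at in leg was also lost, at -0.44 (adjusted p 0.29) and -0.63 (adjusted p 0.205), and without the 4 replicate 1 arrays of 10 months it was at -0.58 (adjusted p 0.129). With a pseudocount of 64 this call was lost as well. Leaving out 1 array also ended some calls. In leg, that of Pdxdc1 97713_at was lost without any 1 of 11 arrays, and that of Thumpd1 without Balb replicate 2 or 3 or SJL replicate 3 of 12 months, or Balb replicate 1 or SJL replicate 2 of 10 months. In EOM, the rise of Pla2g12a 104342_i_at was lost without any 1 of the 4 arrays of 12 months or Balb replicate 3 of 10 months (highest adjusted p 0.092). That of Itgb1bp1 100990_g_at was lost without Balb replicate 1 or SJL replicate 3 of 12 months, and that of Rhou 96747_at without Balb replicate 2 or SJL replicate 1 of 12 months. Both were also lost when the fit held only the groups compared (adjusted p 0.0847 for Itgb1bp1 and 0.114 for Rhou).

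**Figure D5:**
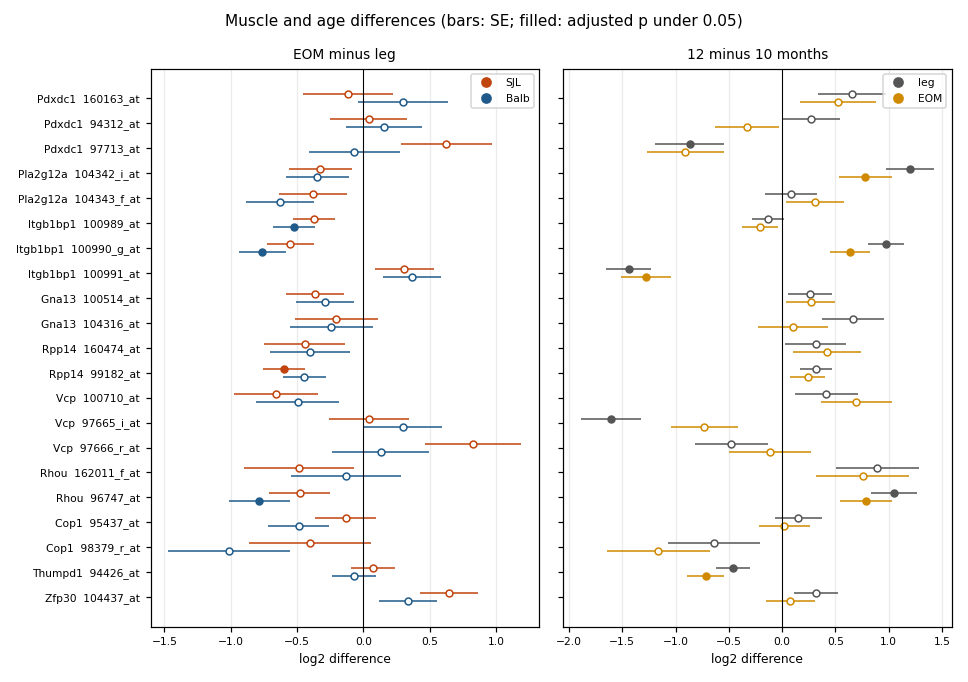
Log2 differences of the 21 tested probe sets, EOM minus leg (left, SJL red and Balb blue) and 12 minus 10 months (right, leg grey and EOM orange), with standard errors as bars. Filled points passed an adjusted p of 0.05. The 3 Itgb1bp1 sets part with age, at -0.13, 0.98 and -1.44 in leg.

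Whether the strain differences changed between 10 and 12 months was tested as an interaction in each muscle. No set passed in leg or in EOM, 0% of 8695 in each, and 264 and 257 sets had an unadjusted p under 0.05, 4 of them members' in each muscle. In leg these were Pdxdc1 97713_at at -2.26 (SE 0.65), Thumpd1 at 1.04 (SE 0.31), Vcp 97666_r_at at -1.81 (SE 0.68) and Vcp 97665_i_at at -1.31 (SE 0.56). In EOM they were Pdxdc1 97713_at at -2.13 (SE 0.72) and 94312_at at 1.68 (SE 0.61), Thumpd1 at 1.42 (SE 0.35) and Pla2g12a 104343_f_at at -1.25 (SE 0.54). Other member values had the sign opposite to the set's strain difference, such as Rhou 96747_at in leg at 0.78 (SE 0.43), Rhou 162011_f_at in EOM at 1.25 (SE 0.87) and Pdxdc1 160163_at in EOM at -0.94 (SE 0.72). As a description, the strain difference of Pdxdc1 97713_at was -6.40 in leg and -5.64 in EOM at 12 months, and -4.14 and -3.51 at 10 months, while that of Rhou 96747_at in leg was -0.98 at 12 months and -1.76 at 10 months. Without the 4 replicate 1 arrays of 10 months the EOM value of Pla2g12a 104343_f_at was -0.96 and passed (limma adjusted p 0.0299), beside 0.092% of all sets.

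Genes that act with the members or resemble them were listed to see whether the strain difference extended to them. Of 69 listed genes 43 were on the array and 37 were tested. In leg 1 was higher in SJL, Pla2g7 (given above), and none was lower, and in EOM none passed, with an unadjusted p under 0.05 for 1. The values of the 37 genes ran from -0.69 (Derl2) to 1.17 (Pla2g7) in leg and from -0.53 (Pla2g4a) to 0.69 (Pla2g7) in EOM, and their medians were -0.04 and -0.05, against -0.02 and -0.04 over all sets. None of the 9 tested partners of Vcp, cofactors that bring it ubiquitinated proteins, and none of the 4 tested partners of Gna13 passed in either muscle. Over all sets 1.41% passed in leg and 0.932% in EOM. Few passes would be expected in lists of this size, so these counts show nothing particular to the lists.

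Between muscles 1 of the 37 passed in SJL and 5 in Balb, beside 9.56% and 13.6% of all sets, and with age 10 passed in leg and 7 in EOM, beside 38.5% and 27.6%. None of these counts exceeds the share over all sets, so they show nothing particular to the lists. Between muscles Pla2g7, a phospholipase that degrades platelet-activating factor and is made by macrophages, was at -1.87 in SJL (limma adjusted p 2.53e-05) and -1.39 in Balb (limma adjusted p 0.000382), beside the macrophage list at -0.615 and 0.662. In Balb EOM the kindlin Fermt2, an integrin activator, was at -1.03 (limma adjusted p 0.00538) and the Vcp cofactor Faf1 at -1.16 (limma adjusted p 0.0452), while Pla2g4a was at 1.09 (limma adjusted p 0.0414) and Sgpl1 at 0.74 (limma adjusted p 0.018). With age in leg 3 of the 37 were higher and 7 lower, among them talin, Tln1, at -1.39 (limma adjusted p 9.77e-07). Of the 7 other phospholipases A2 tested, 2 were higher and 4 lower at 12 months in leg, and none was higher and 3 lower in EOM.

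The nearest measured genes on either side of each member were examined for a strain difference that would reach beyond the member. There were 19 such genes, 6 of them directly adjacent and others up to 23 genes away. None passed in leg or EOM, beside 1.41% and 0.932% of all sets. An unadjusted limma p under 0.05 was found for 0 and 1, beside 8.12% and 8.19% of all sets. These counts therefore show nothing particular to the neighbours. Their values ran from -1.37 (Dnajb5, SE 0.67) to 0.55 in leg and from -0.95 to 0.47 in EOM. Ntan1, next to Pdxdc1, was at -0.38 (SE 0.18) in leg and -0.37 (SE 0.21) in EOM, and Cpsf3, next to Itgb1bp1, at 0.28 (SE 0.25) and 0.47 (SE 0.27).

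The probe sets of other genes most like each member over the 22 arrays were found by Pearson correlation of log2 values, a description in which all points share the same division into strains. Gcsh, of the glycine cleavage system, was among the 2 most alike for Pdxdc1 97713_at (r = 0.94), Pla2g12a 104343_f_at (0.93) and Itgb1bp1 100989_at (0.92). Rgs5 followed Pdxdc1 97713_at (0.91), and Cd59b, a complement inhibitor, followed Pla2g12a 104343_f_at (0.93). The sets most like Thumpd1 were Phkg1 (0.94), the muscle phosphorylase kinase subunit, and H2-K1 97700_at (0.94). Among the members, Rpp14 160474_at was closest to Pla2g12a 104343_f_at (0.87) and Vcp 97666_r_at to Pdxdc1 97713_at (0.91). All of these are sets with a strain difference, Phkg1 with the largest of the 41 at 5.44. Sets outside the 41 were also among the closest. For Rhou 162011_f_at these were Mdm4 and Ndufaf1, with strain differences of -0.48 and -0.49 on the mean of both muscles. For Cop1 95437_at they were Immp1l (1.09) and Atp6v1g1 (0.66), and for Gna13 100514_at Fam220a (-1.67) and Mrpl16 (-1.08). For Zfp30 104437_at, Acaa1a (0.82) was among the 41 and Gas5 (1.22) was not.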

How the data were processed

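RNA was measured on 22 Affymetrix arrays with the standard protocol of the manufacturer, per the labels, and the deposited values are linear intensities, 1 per probe set and array, that the authors had scaled to a common trimmed mean, as the values show. Software, background correction, summarization and genome build are not given in the sources used here, and the table holds no detection calls. Of 12488 probe sets, 66 are controls, 10833 carry 1 gene symbol, 396 several and 1193 none. Symbols come from the platform annotation, updated through gene IDs, of which 10817 matched.

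Values were taken as log2(intensity + 16) with no further scaling, and probe sets among the lowest 30% by mean were left out, leaving 8695. limma 3.58.1 in R 4.3.3 fitted a mean for each of the 8 groups to all arrays (14 residual and 3.63 prior degrees of freedom, intensity-dependent prior variance). Tests were two-sided, with Benjamini-Hochberg adjustment over all probe sets within a comparison and a threshold of 0.05. Muscle and strain differences weight both ages equally, and age differences both strains. Log2 ratios of 1561 pairs of probe sets of 1 gene were fitted the same way. The scripts were tested on simulated data. Plots were made in Python 3.11.15 using matplotlib 3.10.9.

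All probe sets of the 10 genes are named. The genes and the lists of partners, relatives and markers were chosen with earlier results of these data known. Neighbouring genes were taken from the gene order of a RefSeq table for GRCm38.p6, used for names and order only. Other pseudocounts, filters, scalings, sample sets and a block for replicate number were tried as alternatives.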

Additional observations from a re-analysis of the deposited data

How the results depend on the processing

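The alternatives were pseudocounts of 1 and 64, no filter on low values, 50% of probe sets left out, quantile normalization, median centring, leaving out the 4 replicate 1 arrays of 10 months, a replicate block, fits on only the groups compared, and each array left out in turn. Fits on the 10-month or 12-month arrays alone, for the muscle and strain comparisons, and all fits of probe set pairs were chosen after seeing the data, and pairs were not fitted on only the groups compared. No called member value changed sign under any of them. Over the single member values with a test, 62 of the alternative values missed a threshold that had been passed, 91 passed one that had been missed, and 3825 kept their side. Of the member strain differences, which carry no test, 26 alternative values moved by more than the spread between replicates and 1356 did not. The 26 all came from 1 age alone, such as Vcp 97666_r_at in leg at -3.12 on the 12-month arrays and -1.31 on the 10-month arrays, and Itgb1bp1 100989_at in EOM at -1.21 and -0.65. The cause of the moves below was not tested, except that fits on fewer arrays hold fewer samples and fits with another filter hold other probe sets.

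Without a filter, 2 probe sets passed for a strain difference that changed with age in EOM, 213 pairs passed between muscles and 1293 between ages. With 50% left out, these were 1, 73 and 439, and 2 member sets passed between muscles in SJL, as they did with median centring, where 15 members passed with age in leg. Of all 8695 sets, 2637 were higher and 1520 lower with age in leg under median centring. In the strain comparison in EOM, 39.5% of the passing sets were higher in SJL, and 52.6% after median centring. Between muscles the share higher in EOM was 64.3% in SJL and 64.2% in Balb, 58.8% and 54.7% after quantile normalization, and 52% and 38.1% after median centring, where the median of all sets in Balb moved to -0.09 from 0.11.

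Without the 4 arrays, 2680 sets (6 of members) passed between muscles in SJL, 2901 (8) in Balb, 5351 with age in leg, 3691 (11 of members) with age in EOM, 711 between strains in leg and 718 in EOM. For a strain difference that changed with age, 15 sets passed in leg and 8 in EOM, 1 of them of a member, and 436 pairs (5 of members) passed between muscles.

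Same-numbered arrays deviated together at 10 months, with correlations of 0.26 to 0.774 over 18 pairs, but not at 12 months, with -0.0809 to 0.0392 over 12 pairs, so the numbers do not pair the samples throughout. With the replicate block, 1789 sets (4 of members) passed between muscles in SJL, 2234 (6) in Balb, 11 members with age in leg, 3906 sets (9 of members) with age in EOM, 333 between strains in leg, 212 in EOM, and 289 pairs between muscles. With age in EOM, the block put Vcp 97665_i_at (-0.81, limma adjusted p 0.0491) and Pdxdc1 97713_at (-0.91, limma adjusted p 0.0388) past the threshold.

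On only the groups compared, 487 sets passed between muscles in SJL, 0 of them of members, 3 members passed with age in EOM, 1 set for the change with age in leg, and 35 sets between strains in EOM. On the 10-month arrays alone, 64 sets passed between muscles in SJL and 81 in Balb, with 0 members in each, 8 and 3 between strains in leg and EOM, and 4 pairs, 0 of members, between muscles. On the 12-month arrays alone these counts were 1949 with 6 members, 2433 with 9 members, 518, 262 and 248 pairs.

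With each array left out in turn, the number passing ranged as follows. Between muscles it was 483 to 1270 in SJL, with 0 to 4 members, and 679 to 1430 in Balb, with 1 to 4. With age it was 2880 to 3703 in leg, with 5 to 8 members, and 1446 to 2744 in EOM, with 3 to 7. For the change with age it was 0 to 0 in leg and 0 to 1 in EOM, with 0 to 0 members in both. Between strains it was 86 to 147 in leg and 47 to 102 in EOM. Of pairs, 58 to 230 passed between muscles, with 2 to 4 of members, and 655 to 776 between ages, with 7 to 9. The lowest counts came without SJL EOM replicate 1 of 12 months in SJL muscle, without Balb EOM replicate 1 of 12 months in Balb muscle and in pairs between muscles, and without Balb EOM replicate 2 of 12 months with age and strain in EOM. Several counts were highest without SJL leg replicate 1 of 10 months.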
